A study of Macaca mulatta with 51 samples.

Results

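The NRF2 antioxidant genes were taken as 9 genes named for their function: NFE2L2, KEAP1, NQO1, HMOX1, GCLC, GCLM, TXNRD1, SRXN1 and SLC7A11. The rule used no measured value, but the genes were chosen with earlier results of these data known. Of the 9, 8 had a row among the 16033 genes with counts, and HMOX1 was not analysed here. All 8 passed the filter on low counts in both tissues. The table pairs each rhesus gene with the symbol and Ensembl identifier of its human homolog: NFE2L2 (ENSG00000116044), KEAP1 (ENSG00000079999), NQO1 (ENSG00000181019), GCLC (ENSG00000001084), GCLM (ENSG00000023909), SLC7A11 (ENSG00000151012), TXNRD1 (ENSG00000198431) and SRXN1 (ENSG00000271303).

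RNA sequencing was done on punch biopsies of subcutaneous adipose tissue (AT) and gastrocnemius skeletal muscle (SM) from diet-induced obese (DIO) rhesus macaques. All animals were non-diabetic, 11 to 22 years old and kept on a high-fat, high-sucrose diet for at least 2 years; they were 5 males and 5 ovariectomized females. Each received native human FGF21 under the skin once a day for 12 weeks, with the dose rising from 10 to 1000 ug/kg/day, except in 1 animal whose dose stayed at 300 ug/kg/day. Biopsies came from 3 time points, called pre-treatment, post-treatment (the end of dosing) and washout (16 weeks without FGF21). The study reported that the animals lost weight during dosing and regained it in washout. There was no untreated arm, so each time point was compared with the other time points of the same animals. Treatment cannot be told apart from the passage of time or from the change in weight. AT had 10, 9 and 8 libraries at the successive time points from 10 animals, and SM had 6, 8 and 7 from 8 animals.

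NRF2, the protein product of NFE2L2, is a transcription factor that switches on genes for detoxification, glutathione supply and the repair of oxidized proteins. In unstressed cells KEAP1 holds NRF2 and hands it to a ubiquitin ligase for destruction, so much of the control of NRF2 is on the protein and not on its mRNA. BACH1 is a repressor that competes for the same DNA elements. NRF2 is known in adipose tissue for its links with adipocyte differentiation and with the enzymes that make NADPH, which glutathione, thioredoxin and fatty acid synthesis all consume.

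Library totals ran from 14455195 to 23940980 counts, with a median of 18578869. The tissue labels were checked against marker genes: the summed CPM (counts scaled to library size) of 8 skeletal muscle markers lay between 50800 and 238000 in SM and between 47.5 and 165 in AT, whereas 4 adipocyte markers summed to 9440 to 32400 CPM in AT and 36.7 to 1170 CPM in SM. The post-treatment SM libraries stood apart in their spread. The post-treatment SM library of animal 21189 had the lowest sum of muscle markers (50800 CPM) and the highest of 6 fibroblast and progenitor markers in SM (16700 CPM). Library identifiers fell into 3 series of numbers, which the labels do not explain. In AT most libraries were of the last series at pre- and post-treatment (7 of 10 and 7 of 9), with 4 of 8 in washout. In SM the last series held 2 of 6 pre-treatment, 3 of 8 post-treatment and 6 of 7 washout libraries, and the first held 3, 5 and 0. Series and washout were therefore largely confounded in SM. Pre- and post-treatment SM had similar mixes as groups, but the series changed within most animals with both biopsies. Animals 19832 and 20275 went from the last to the first series, 21189 and 24849 from the first to the last and 23004 from the middle to the first. Only 22130 kept its series, so time and series cannot be told apart within the other animals.

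In AT, FGF21 treatment was followed by lower mRNA of SLC7A11, NQO1 and SRXN1. A gene was called where its change was above 0.26 or below -0.26 on the log2 scale with a Benjamini-Hochberg adjusted p under 0.05 in edgeR's quasi-likelihood test, which had animal as a term. Of the 8 genes, 3 were called lower and 0 higher between pre- and post-treatment, against 8.0% of 13367 genes called lower and 6.53% called higher. The median log2 fold change of the 8 was -0.24, and that of all genes tested was 0.03. All levels given within a tissue are CPM scaled by the trimmed mean of M values (TMM), and they compare a gene between libraries, not one gene with another.

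**Figure D1:**
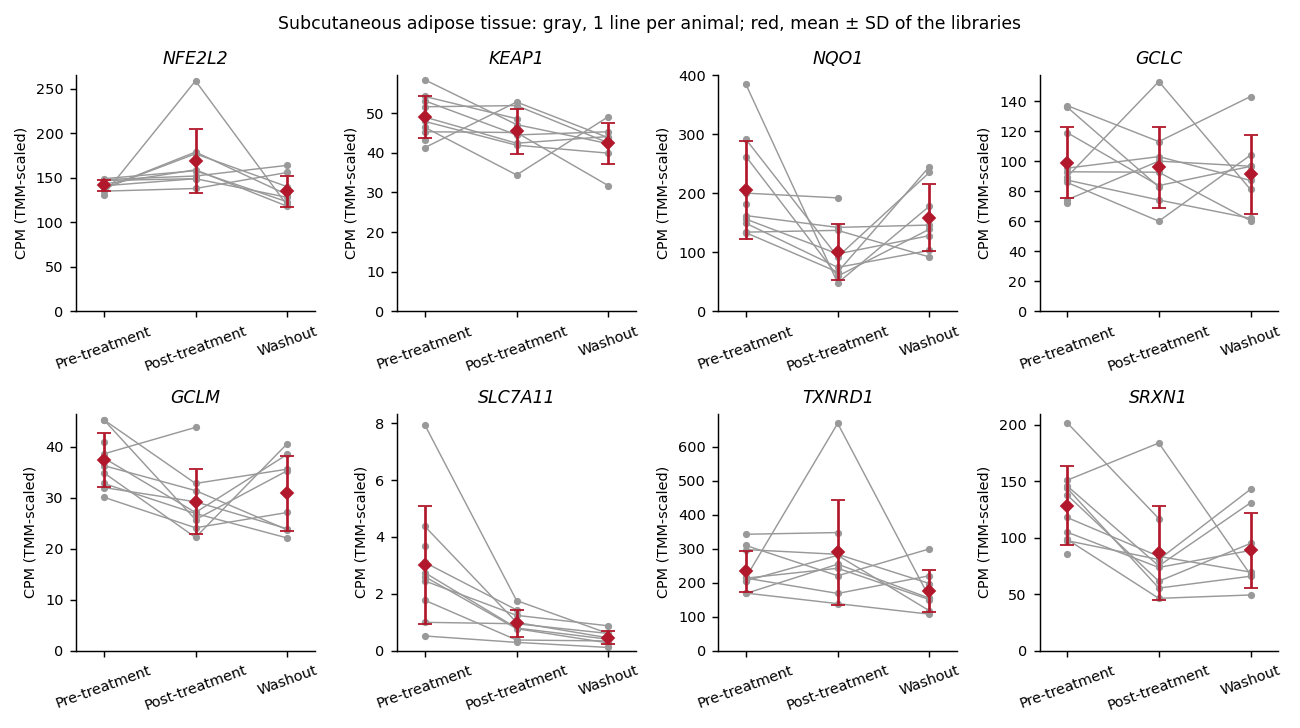
CPM (TMM-scaled, linear axes that start at 0) of the 8 genes in AT at each time point, with 1 gray line per animal and the mean ± SD of the libraries in red (n = 10, 9 and 8). SLC7A11 was lower in 9 of 9 animals post-treatment and in 8 of 8 animals after it, though it hardly differed in 1 animal each time. NQO1 fell in 8 of 9 animals. In 1 animal NFE2L2 reached 259 CPM and TXNRD1 668 CPM post-treatment.

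SLC7A11 is the light chain of the cell's cystine/glutamate exchanger, which brings in the cystine from which glutathione is made. It was measured at 0.514 to 7.94 CPM pre-treatment (median 2.67), at 0.289 to 1.76 CPM post-treatment (median 0.944) and at 0.11 to 0.872 CPM in washout (median 0.423). The groups overlapped, but every one of the 9 animals with both biopsies was lower post-treatment than before. Animal 24849 hardly differed, at 0.995 CPM (18 counts) before and 0.944 CPM (19 counts) after. The mean fell from 3.02 ± 2.08 (SD, n = 10) to 0.954 ± 0.474 CPM (n = 9), which was -1.53 on the log2 scale (standard error 0.25, edgeR adjusted p = 0.00238), or 2.88-fold lower. SLC7A11 is a low gene in this tissue, with 9 to 158 counts per library pre-treatment, 6 to 35 post-treatment and 2 to 15 in washout. The pre-treatment library of animal 20275 was the high one; without that library the log2 fold change was -1.38 (edgeR adjusted p = 0.00794). Among libraries of the last identifier series alone it was -1.54 (edgeR adjusted p = 0.0245).

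NQO1 encodes a reductase that clears quinones without forming radicals and is the textbook readout of NRF2. Its level was 133 to 384 CPM pre-treatment (median 171), 47.9 to 192 CPM post-treatment (median 92.2) and 91.9 to 245 CPM in washout (median 142). Post-treatment it was lower in 8 of 9 animals, and in the ninth, animal 23004, it was 134 CPM before and 137 CPM after. Animal 22130 had the highest pre-treatment value of all, 384 CPM, and the lowest post-treatment value, 47.9 CPM. The log2 fold change of NQO1 was -1.03 (standard error 0.28, edgeR adjusted p = 0.0224), a 2.04-fold lower level. The call rested on few animals: leaving out animal 20275 gave -0.88 (edgeR adjusted p = 0.072), leaving out 22130 gave -0.80 (adjusted p = 0.0664) and leaving out 26292 gave -0.95 (adjusted p = 0.0538). It was also lost without only the pre-treatment library of 20275 (adjusted p = 0.0506) or only its post-treatment library (adjusted p = 0.0517), and with only the 2 time points in the fit (adjusted p = 0.0522); within the last identifier series it was -1.12 (adjusted p = 0.017).

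SRXN1 encodes sulfiredoxin, which restores peroxiredoxins that have been oxidized too far. It ranged from 85.3 to 202 CPM pre-treatment (median 128), from 46.3 to 184 CPM post-treatment (median 75.1) and from 49.3 to 143 CPM in washout (median 79.2). Of the 9 animals, 8 were lower post-treatment, and the exception, animal 20275, went from 151 to 184 CPM. The log2 fold change was -0.70 (standard error 0.19, edgeR adjusted p = 0.0238), or 1.62-fold lower. The call was lost without animal 21866 (adjusted p = 0.0621), 22130 (adjusted p = 0.0815) or 26292 (adjusted p = 0.0591), within the last identifier series (-0.56, adjusted p = 0.079) and without the animal term (-0.57, adjusted p = 0.0942).

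The other genes of glutathione synthesis did not pass the test. GCLM, the modifier subunit of glutamate-cysteine ligase, which catalyzes the rate-limiting step, was 30.1 to 45.3 CPM pre-treatment (median 37) and 22.2 to 43.8 CPM post-treatment (median 27.1). It was lower in 8 of 9 animals with a log2 fold change of -0.34 (95% interval -0.58 to -0.10, edgeR adjusted p = 0.0506), just outside the threshold, and it was called in 8 of 23 alternative analyses. GCLC, the catalytic subunit of the same ligase, was 71.9 to 137 CPM before and 60 to 153 CPM after treatment. Its log2 fold change was -0.09 (95% interval -0.40 to 0.22), and it was lower in 6 of 9 animals.

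Neither regulator nor the thioredoxin reductase was called. NFE2L2 lay within 131 to 149 CPM in all 10 pre-treatment libraries (median 142) and spread to 138 to 259 CPM post-treatment (median 158). It was higher in 9 of 9 animals, though by a median log2 difference of 0.09 within animals, and its log2 fold change of 0.25 did not pass (95% interval 0.03 to 0.46, edgeR adjusted p = 0.107). KEAP1 was 41.3 to 58.4 CPM before and 34.4 to 52.8 CPM after treatment, with a log2 fold change of -0.13 (95% interval -0.31 to 0.05). TXNRD1, the cytosolic enzyme that keeps thioredoxin reduced, was 168 to 342 CPM pre-treatment (median 213) and 138 to 668 CPM post-treatment (median 254). Its log2 fold change was 0.23 (95% interval -0.18 to 0.65), and 5 of 9 animals were higher.

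The post-treatment AT library of animal 20275 was the highest of its group for NFE2L2 (259 CPM), TXNRD1 (668 CPM), SRXN1 (184 CPM), GCLC (153 CPM) and SLC7A11 (1.76 CPM), yet it was among the low ones for NQO1 (59.5 CPM). The same library had the highest sum of 10 macrophage markers, 5410 CPM, against 952 CPM in that animal's pre-treatment library. It also had the highest sum of 7 immediate early genes in AT, 718 CPM against 104 CPM pre-treatment, and its adipocyte marker sum was 11100 CPM against 26700 CPM. Without this library the post- against pre-treatment log2 fold change of NFE2L2 was 0.14 and that of TXNRD1 was 0.02, neither called.

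Markers of several cell types differed between time points. Over all genes, 8.0% were called lower and 6.53% higher post-treatment against pre-treatment. These shares were 17.4% and 16.6% in washout against post-treatment, and 7.8% and 12.1% in washout against pre-treatment. The counts of called markers are to be read against them. The 10 macrophage markers summed to 651 to 2380 CPM pre-treatment, 959 to 5410 CPM post-treatment and 394 to 2120 CPM in washout, with none at 0. Of these 10, 3 were called higher post-treatment, all 10 were called lower in washout than post-treatment and 6 were called lower in washout than pre-treatment. The 4 adipocyte markers in the table, of 7 listed, summed to 15600 to 32400, 9440 to 28000 and 10300 to 29700 CPM at the successive time points, and 2 were called lower post-treatment and 1 higher in washout than post-treatment. Red cell markers had summed levels of 327 to 10600, 454 to 7640 and 457 to 12000 CPM, with 2 of the 5 listed at 0 in every AT library; of the 3 tested, 1 was called lower post-treatment and 3 were called higher in washout than post-treatment. Of 6 fibroblast and progenitor markers (summed level 12300 to 28400, 16100 to 39900 and 10000 to 34300 CPM, none at 0), 1 was called higher post-treatment and 2 were called lower in washout than post-treatment and 1 lower than pre-treatment. Of 4 endothelial markers measured (684 to 1300, 594 to 1420 and 665 to 2130 CPM, none at 0), 2 were called higher in washout than post-treatment and 2 higher than pre-treatment. Of 4 T cell markers measured (5.25 to 16.5, 5.66 to 19.7 and 6.86 to 11.7 CPM, none at 0), 1 was called higher post-treatment and 1 lower in washout than post-treatment. Of 7 immediate early genes (89.8 to 608, 118 to 718 and 104 to 513 CPM, none at 0), 1 was called higher post-treatment and 2 lower in washout than post-treatment. Of 3 neutrophil markers measured (2.54 to 22.6, 2.5 to 37 and 1.79 to 13.9 CPM, none at 0), none was called. In animal 22130, which had the widest fall of NQO1, the adipocyte sum went from 29100 to 9440 CPM and the macrophage sum from 651 to 2680 CPM. Animals 24849 and 21866 had a fall of NQO1 with a rise of the adipocyte sum. In 24849 NQO1 went from 133 to 66.4 CPM and the sum from 18400 to 19700 CPM. In 21866 NQO1 went from 156 to 97.2 CPM and the sum from 16800 to 20700 CPM. The adipocyte sum fell in each other animal with both biopsies. In bulk tissue, fewer cells of a type and less RNA per cell cannot be told apart, and the part of these shifts in the changes of the NRF2 genes was not tested.

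After treatment stopped, SLC7A11, TXNRD1 and NFE2L2 were lower in washout than post-treatment AT. These were 3 of 8 genes called lower with 0 called higher, against a background of 17.4% of all genes called lower and 16.6% called higher. SLC7A11 fell further, by 0.96 on the log2 scale (standard error 0.29, edgeR adjusted p = 0.0158), with 8 of 8 animals lower. This call was lost without the animal term (-1.06, adjusted p = 0.0694) and within the last identifier series (-0.74, adjusted p = 0.317). Animal 21866 hardly differed, with 7 counts of SLC7A11 in both libraries (0.372 CPM post-treatment and 0.339 CPM in washout).

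TXNRD1 was 107 to 299 CPM in washout (median 155) and lower than post-treatment in 6 of 8 animals, with a log2 fold change of -0.62 (standard error 0.21, edgeR adjusted p = 0.0272). NFE2L2 was 118 to 164 CPM in washout (median 130), lower in 6 of 8 animals, with a log2 fold change of -0.32 (standard error 0.11, edgeR adjusted p = 0.0261). Both values drew on animal 20275: without it TXNRD1 was -0.40 (adjusted p = 0.0646) and NFE2L2 was -0.21 (adjusted p = 0.0696). Without any of animals 21189, 22130 or 24849 both calls were lost too, with adjusted p from 0.051 to 0.0855. Within the last identifier series TXNRD1 was -0.86 (adjusted p = 0.0721) and NFE2L2 was -0.42 (adjusted p = 0.108), neither called. TXNRD1 was also not called without 20261 (adjusted p = 0.0582), nor NFE2L2 without 21866 (adjusted p = 0.0572). With only the 2 time points in the fit neither was called (adjusted p = 0.118 and 0.115), and NFE2L2 was not called with library size only (adjusted p = 0.0795) or with limma's voomWithQualityWeights (-0.24, within the fold change limit).

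NQO1 moved the other way. In washout it was higher than post-treatment in 7 of 8 animals, with animal 23004 the exception, at a log2 fold change of 0.70 (95% interval 0.09 to 1.30, edgeR adjusted p = 0.0662), which did not pass. Its washout level did not pass against pre-treatment either (-0.33, 95% interval -0.92 to 0.26). SRXN1, with a washout median of 79.2 CPM against 75.1 CPM post-treatment, gave a log2 fold change of 0.16 (95% interval -0.26 to 0.58). GCLM, GCLC and KEAP1 had values of 0.11, -0.06 and -0.09 and were not called.

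**Figure D2:**
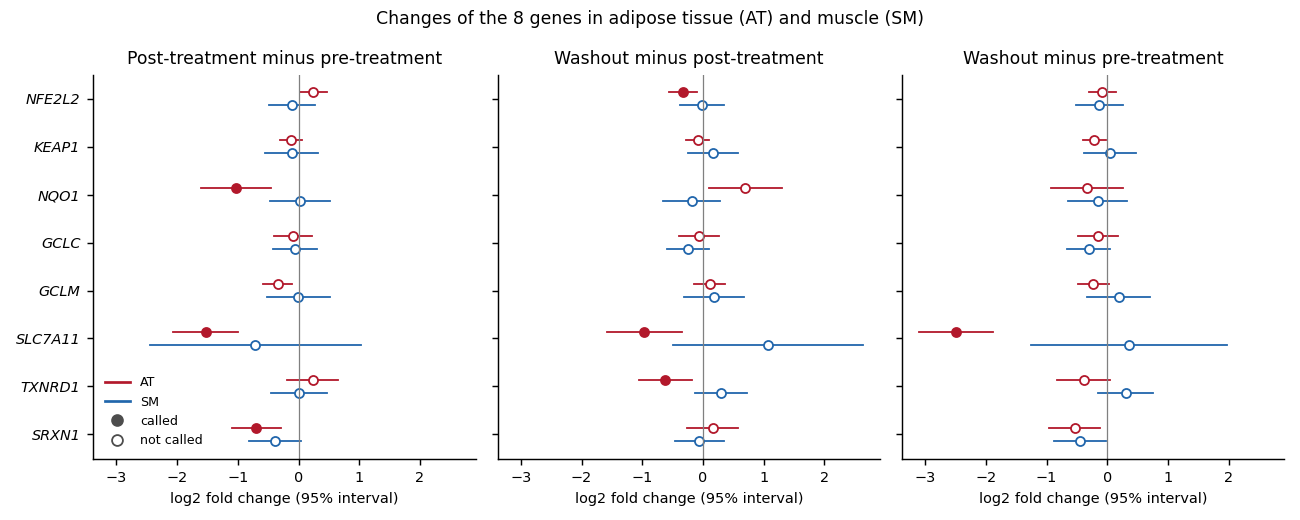
Log2 fold change of each gene with its 95% interval, in AT (red) and SM (blue), for the 3 pairs of time points; filled points were called. SLC7A11 in AT lies at -1.53, -0.96 and -2.49, and no point in SM is filled.

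Washout against pre-treatment AT called SLC7A11 alone among the 8 genes. All 8 fold changes were below 0, with a median of -0.28 on the log2 scale against -0.02 over all genes, while 7.8% of genes were called lower and 12.1% higher. SLC7A11 was lower in 8 of 8 animals, with a log2 fold change of -2.49 (standard error 0.29, edgeR adjusted p = 8.36e-06), or 5.62-fold lower, at a washout mean of 0.455 ± 0.235 CPM (SD, n = 8). It remained called in the 22 alternative analyses that could test it, where its value lay between -2.72 and -2.28. SRXN1 was lower in 7 of 8 animals by 0.54 on the log2 scale (95% interval -0.96 to -0.12, edgeR adjusted p = 0.0658) and was called in 6 of 23 alternatives. The mean of SLC7A11 was lowest 16 weeks after the last dose, when NQO1 had a median of 142 CPM against 171 CPM before treatment.

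None of the 8 genes was called in SM in any of the 3 comparisons. Few genes were called in SM at all: 0.0% (0 of 12617) post-treatment against pre-treatment, 0.135% in washout against post-treatment and 0.0238% in washout against pre-treatment, with 323, 2029 and 1621 genes at an unadjusted p under 0.05. DESeq2 also called 0 genes post-treatment against pre-treatment in SM, and 359 and 179 in the other comparisons. The SM counts turned on the identifier series: with it as a covariate 2390 genes were called in washout against post-treatment and 1278 in washout against pre-treatment, and within the last series 2859 and 20 were.

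**Figure D3:**
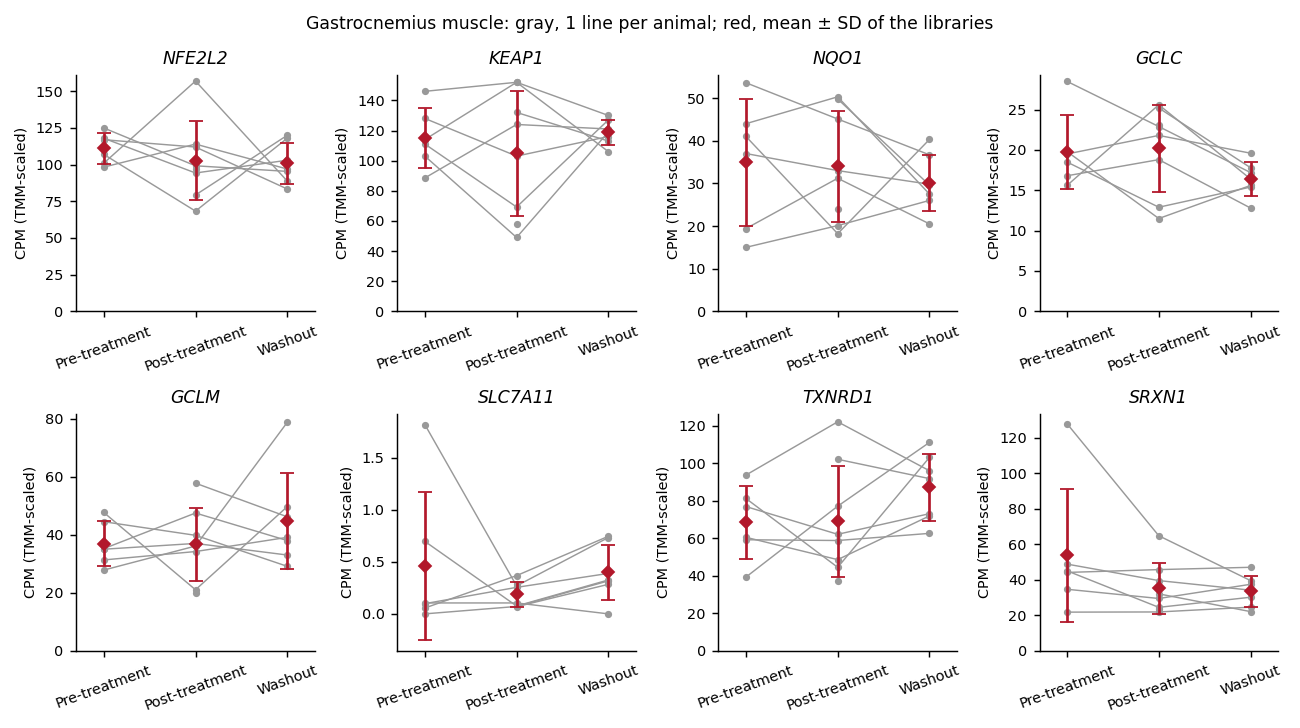
CPM (TMM-scaled) of the 8 genes in SM at each time point, with 1 gray line per animal and the mean ± SD of the libraries in red (n = 6, 8 and 7). Animals moved in both directions, and KEAP1 spread from 49 to 152 CPM post-treatment against 106 to 130 CPM in washout.

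NQO1 in SM was 15 to 53.6 CPM pre-treatment (median 39), 18.2 to 50.3 CPM post-treatment (median 32.1) and 20.5 to 40.3 CPM in washout (median 29.6). It rose in 3 of 6 animals and fell in 3 with treatment, and its log2 fold change of 0.03 had a 95% interval of -0.47 to 0.52. The AT value of -1.03 had a 95% interval of -1.61 to -0.45, and the direct comparison of the tissues is given below. SRXN1 was 21.7 to 128 CPM pre-treatment (median 44.5), where animal 22130 stood apart at 128 CPM, and 21.8 to 64.8 CPM post-treatment (median 30.7). Its log2 fold change was -0.38 (95% interval -0.81 to 0.05).

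SLC7A11 was close to the limit of detection in SM, with a median of 2 counts per library pre-treatment, 3.5 post-treatment and 6 in washout, where 3 counts are the limit that a count of 0 allows. Its fold change in SM ranged with the analysis and no direction is given. KEAP1 was 88.5 to 146 CPM pre-treatment (median 113) and 49 to 152 CPM post-treatment (median 113). The post-treatment values split by identifier series. In the last series animals 21189, 21866 and 24849 had 49, 58 and 69.2 CPM, and libraries of the first series had 103 to 152 CPM. The same last-series libraries had the lowest post-treatment muscle marker sums, at 50800, 96200 and 107000 CPM. Within the last series alone KEAP1 was called higher in washout than post-treatment (1.06, edgeR adjusted p = 0.0133). Its 3 post-treatment libraries were the ones named here, and the part of muscle content in this call was not tested. NFE2L2, GCLC, GCLM and TXNRD1 had post- against pre-treatment log2 fold changes of -0.11, -0.06, -0.00448 and 0.00569 in SM.

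The changes in the 2 tissues were then compared directly, by an interaction term. For post- against pre-treatment 0 of 8 genes were called, where 0.0406% of 12322 genes were. NQO1 had the smallest p, with AT lower relative to SM by 1.10 on the log2 scale (95% interval -1.92 to -0.29, unadjusted p from edgeR = 0.00979, adjusted p = 0.323). A difference between AT and SM in the response of NQO1 during treatment was therefore not shown.

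For washout against post-treatment, where 21.9% of all genes differed between tissues, SLC7A11 (-2.08, edgeR adjusted p = 0.0301) and TXNRD1 (-0.93, adjusted p = 0.0313) were called, both with the lower change in AT. TXNRD1 had fallen in AT, and in SM its log2 fold change was 0.30 (95% interval -0.13 to 0.72). The TXNRD1 difference was lost without animal 20275 (adjusted p = 0.0918), 21189 (adjusted p = 0.148), 24849 (adjusted p = 0.0842) or 20261 (adjusted p = 0.053), and with voomWithQualityWeights (-0.58, adjusted p = 0.069). With library size only it was also lost (-0.75, adjusted p = 0.056), as was that of SLC7A11 (-1.78, adjusted p = 0.08), and NQO1 was called instead (1.05, adjusted p = 0.0429). For washout against pre-treatment, against 17.0% of all genes, only SLC7A11 was called among the 8 (-2.84, standard error 0.68, adjusted p = 0.0037). Both SLC7A11 differences rest on SM libraries with few counts, and that for washout against post-treatment was not called without animal 20456, 21189, 22130 or 23004, with adjusted p from 0.0545 to 0.0602, or with the identifier series as a covariate (-1.09, adjusted p = 0.242).

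**Figure D4:**
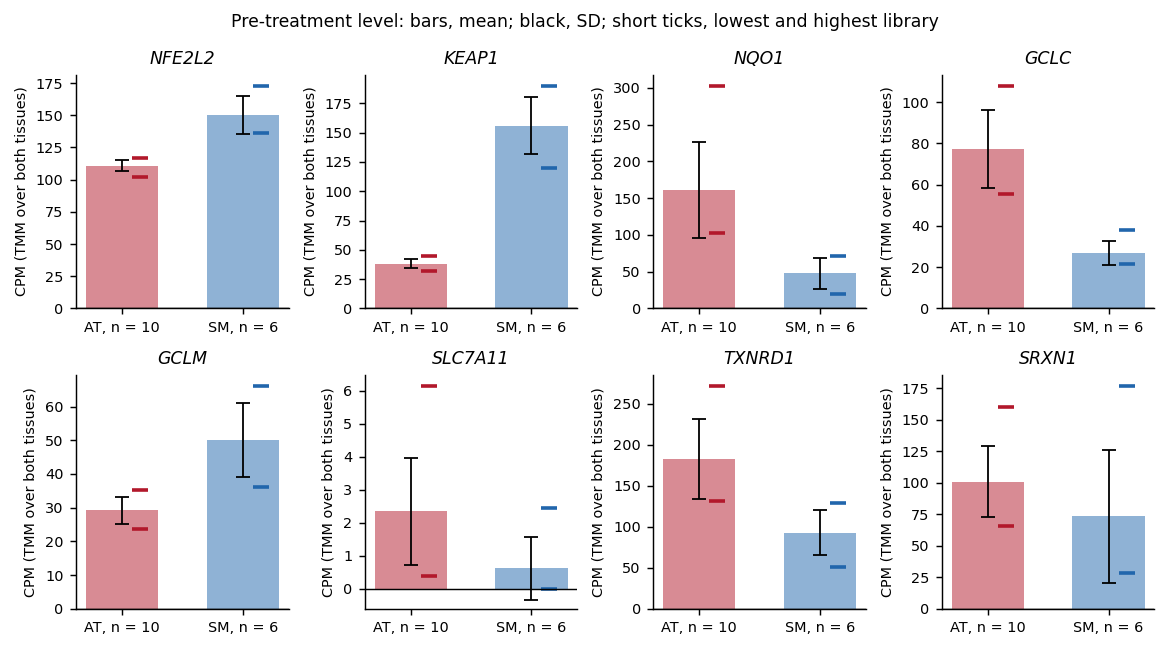
Pre-treatment CPM of each gene, scaled by TMM over both tissues, in AT (red, n = 10) and SM (blue, n = 6); bars are means, black lines are SD and short ticks are the lowest and highest library. Each panel has its own axis. KEAP1 was 38.3 CPM in AT and 156 CPM in SM, and NQO1 was 161 CPM in AT and 47.6 CPM in SM.

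Before treatment, AT and SM held these genes at different levels. All 8 were called, 5 higher in AT and 3 lower, but most genes differ between these tissues: 41.6% of 13463 were called higher and 35.4% lower in AT. On a scale set over both tissues together, KEAP1 was 38.3 ± 4.06 CPM in AT (SD, n = 10) and 156 ± 24 CPM in SM (n = 6), a log2 fold change of -1.98 (standard error 0.16, edgeR adjusted p = 2.06e-13). NFE2L2 was 111 ± 4.56 CPM in AT and 150 ± 14.8 CPM in SM, with a log2 fold change of -0.41 (edgeR adjusted p = 0.0051). The direction for NFE2L2 depended on the scaling: with library size only it was 0.34 (adjusted p = 0.0756), under which the median of all genes moved from 0.16 to 0.90.

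Among the targets, NQO1 (1.69), GCLC (1.52), SLC7A11 (2.18), TXNRD1 (1.08) and SRXN1 (0.65) had higher levels in AT by these log2 fold changes. NQO1 spanned 103 to 303 CPM in AT and 19.4 to 71.9 CPM in SM. The ranges were 55.7 to 108 against 21.4 to 38.2 CPM for GCLC and 131 to 272 against 50.9 to 129 CPM for TXNRD1. The share of all genes whose ranges separate the tissues was not counted, so these ranges describe levels only. SLC7A11 and SRXN1 overlapped, and SRXN1 (adjusted p = 0.0297) was not called without animal 19832, 20275, 20456, 21189, 23004 or 24849 (adjusted p from 0.0524 to 0.0946) or without the animal term (adjusted p = 0.151). GCLM was lower in AT (-0.86, edgeR adjusted p = 7.5e-05), so that the catalytic and modifier subunits of the same ligase differed between tissues in opposite directions. With library size only, the GCLM value was -0.11 (adjusted p = 0.563).

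Other genes of the same pathways were read from lists by role. Of 69 such genes, 63 had counts. In AT, 2 were called higher and 11 lower post-treatment, 10 higher and 12 lower in washout against post-treatment, and 0 higher and 4 lower in washout against pre-treatment. Over all genes the shares called higher and lower were 6.53% and 8.0%, 16.6% and 17.4%, and 12.1% and 7.8% in the same order. The counts in washout against post-treatment were thus near the background. So was the count called lower in washout against pre-treatment. There 0 were called higher, against 12.1% of all genes, and 51 of the 63 had a fold change below 0. The median log2 fold change of the 63 was -0.09, 0.02 and -0.11 in these comparisons.

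**Figure D5:**
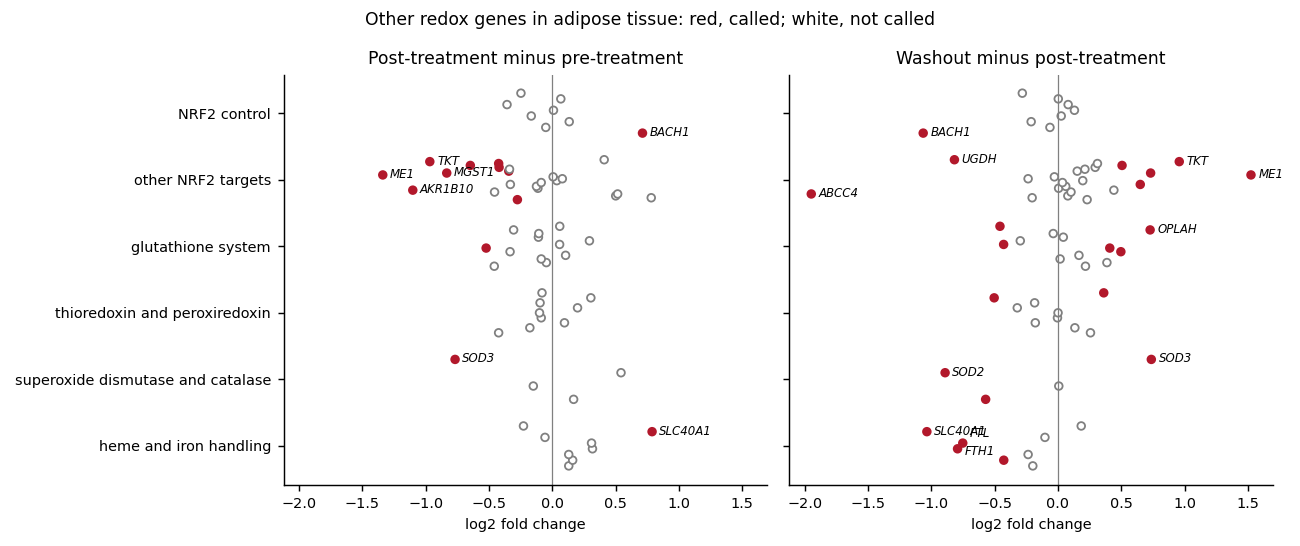
Log2 fold change in AT of 63 further redox genes grouped by role, for post- against pre-treatment (left) and washout against post-treatment (right); red points were called and white points were not. ME1 and TKT lie at -1.34 and -0.97 on the left and at 1.52 and 0.96 on the right, and BACH1 goes from 0.71 to -1.06.

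Of 22 other NRF2 targets, 9 were called lower and 0 higher post-treatment, where 8.0% and 6.53% of all genes were. In washout against post-treatment 5 were called higher and 2 lower, against 16.6% and 17.4% of all genes, and in washout against pre-treatment 1 was called lower. These all-gene shares are the ones to read the counts of the smaller lists below against. All these lists were chosen with earlier results of these data known, so their counts are a description only. ME1, cytosolic malic enzyme, which makes NADPH, was 141 to 458 CPM pre-treatment (median 371), 42.2 to 336 CPM post-treatment (median 95.7) and 188 to 618 CPM in washout (median 359). It fell in 8 of 9 animals with treatment (-1.34, edgeR adjusted p = 0.0205) and rose in 7 of 8 afterwards (1.52, adjusted p = 0.00404). TKT, transketolase of the pentose phosphate pathway, fell in 9 of 9 animals (-0.97, edgeR adjusted p = 0.0032) and rose in 8 of 8 (0.96, adjusted p = 0.00057). MGST1, a microsomal glutathione transferase, fell in 9 of 9 animals (-0.83, adjusted p = 0.0196), and AKR1B10, an aldo-keto reductase, fell in 8 of 9 (-1.10, adjusted p = 0.0224). Without animal 20275 none of ME1 (-1.16, adjusted p = 0.0593), AKR1B10 (-0.90, adjusted p = 0.0704) and MGST1 (-0.69, adjusted p = 0.0544) was called post- against pre-treatment, nor without 22130 (-1.17, -0.84 and -0.70, adjusted p = 0.0503, 0.0532 and 0.0582). ME1 was also lost without 21189 (-1.26, adjusted p = 0.0516), and AKR1B10 without the pre-treatment library of 20275 (-0.95, adjusted p = 0.0501), without the animal term (adjusted p = 0.16), with only 2 time points (adjusted p = 0.0776) and in the last series (adjusted p = 0.074). In the last series the rise of ME1 in washout was 0.93 and not called (adjusted p = 0.181). Of the 4 adipocyte markers measured, 2 were also called lower post-treatment, as given above, and their part in these values was not tested.

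The 2 targets called lower in washout against post-treatment were ABCC4 and UGDH. ABCC4, an efflux pump for conjugates and nucleotides, was 3.54 to 9.98 CPM pre-treatment, 5.95 to 17.5 CPM post-treatment and 0.916 to 6.14 CPM in washout. It was lower in washout than post-treatment in 8 of 8 animals (-1.95, edgeR adjusted p = 0.000119) and lower than pre-treatment in 8 of 8 (-1.43, adjusted p = 0.00181). UGDH, which makes UDP-glucuronic acid for conjugation, was lower in washout than post-treatment in 8 of 8 animals (-0.82, adjusted p = 0.000647), though not called within the last series (-0.83, adjusted p = 0.0558). In SM, ABCC4 was the 1 gene of 63 called, with washout higher than post-treatment in 7 of 7 animals (1.61, adjusted p = 0.0486), and 10 of 19 alternatives did not call it, among them those without animal 19832, 20275, 20456, 21189, 23004 or 24849 (adjusted p from 0.088 to 0.238).

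Of 8 genes that control NRF2 activity, BACH1 was the 1 called. It was 44.1 to 69.5 CPM pre-treatment (median 53.7), 57 to 155 CPM post-treatment (median 84) and 35.5 to 63 CPM in washout (median 42.1). It rose in 9 of 9 animals with treatment (0.71, standard error 0.15, edgeR adjusted p = 0.00617) and fell in 8 of 8 after it (-1.06, adjusted p = 6.04e-05), and it was called in all 23 alternatives in both comparisons. CUL3, RBX1, MAFF, MAFG, MAFK, SQSTM1 and NFE2L1 were not called in either. The median macrophage marker sum also went up and then down, at 1300, 2680 and 664 CPM, and its part in the BACH1 values was not tested.

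In the glutathione system, 1 of 12 measured genes was called lower post-treatment, GLRX (-0.52, edgeR adjusted p = 0.00578), a glutaredoxin. In washout against post-treatment, 3 were called higher and 2 lower. SLC3A2, the heavy chain that pairs with SLC7A11, was lower in washout than post-treatment in 7 of 8 animals (-0.46, adjusted p = 0.00905) and lower than pre-treatment in 7 of 8 (-0.40, adjusted p = 0.0303). OPLAH, which returns oxoproline to glutamate, was higher in washout than post-treatment in 7 of 8 animals (0.73, adjusted p = 0.00223), as was GGT7 (0.50, adjusted p = 0.00835), whereas GPX1, a glutathione peroxidase, was lower in 6 of 8 (-0.43, adjusted p = 0.0498) and lost its call in 16 of 23 alternatives. Among 9 thioredoxin and peroxiredoxin genes none was called post-treatment; in washout against post-treatment TXNRD2, the mitochondrial thioredoxin reductase, was higher (0.36, adjusted p = 0.0217) while TXNIP, which binds and inhibits thioredoxin, was lower (-0.50, adjusted p = 0.0249). TXN2, mitochondrial thioredoxin, was lower in washout than pre-treatment (-0.28, adjusted p = 0.0481). TXN2 was not called without animal 20261, 20456, 21189, 21866, 22130, 23004 or 26292 (adjusted p from 0.0552 to 0.118), nor TXNIP without 20261, 21866, 23004, 24849 or 26292 (adjusted p from 0.0508 to 0.0729). TXNRD2 was not called without 20275, its post-treatment library alone, 21189 or 21866 (adjusted p from 0.0506 to 0.09), nor SLC3A2 in washout against pre-treatment without 20261, 21866 or 22130 (adjusted p from 0.0622 to 0.0846). For GPX1 the animals were 20261, 20275, 21189, 22130, 24849 and 26292 (adjusted p from 0.0705 to 0.156). GLRX was not called without the animal term (adjusted p = 0.157), nor OPLAH and GGT7 within the last series (adjusted p = 0.058 and 0.0551).

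Among the superoxide dismutases and catalase, 1 of 4 genes was called lower post-treatment, and 1 was called higher and 2 lower in washout against post-treatment. SOD3, the secreted form, fell post-treatment in 7 of 9 animals (-0.77, edgeR adjusted p = 0.0168) and rose in washout in 8 of 8 (0.74, adjusted p = 0.00821). SOD2, the mitochondrial form, was lower in washout than post-treatment in 6 of 8 animals (-0.89, adjusted p = 0.00509), and catalase (CAT) was lower in 8 of 8 (-0.57, adjusted p = 8.67e-05) and was also lower than pre-treatment (-0.40, adjusted p = 0.00211), the latter not called within the last series (adjusted p = 0.0762).

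Among 8 heme and iron genes, SLC40A1, the iron exporter ferroportin, was 112 to 241 CPM pre-treatment (median 165), 185 to 339 CPM post-treatment (median 269) and 99.9 to 201 CPM in washout (median 131). It rose in 9 of 9 animals (0.79, edgeR adjusted p = 0.0008) and fell in 8 of 8 (-1.03, adjusted p = 7.39e-06). FTL, FTH1 and BLVRB, the ferritin chains and a biliverdin reductase, were called lower in washout than post-treatment (-0.75, -0.79 and -0.43). Within the last series FTL and BLVRB were not called (adjusted p = 0.0554 and 0.0879), nor was FTH1 with only the 2 time points in the fit (adjusted p = 0.062). The ferritin values are uncertain, since reads can be shared with near-identical copies. All 10 macrophage markers were called lower in the same comparison, and the part of that shift in the iron genes was not tested.

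Likeness between genes was described over the 27 AT libraries, which share animals and time points, on log2 CPM. NQO1 was most like UBE2G2, a ubiquitin-conjugating enzyme (Pearson r = 0.937), then MGST1 (r = 0.927) and a gene listed only by its identifier, ENSG00000283485 (r = 0.916), among 12141 genes ranked. Within the 8 genes, GCLC and TXNRD1 (r = 0.775), NFE2L2 and TXNRD1 (r = 0.751) and NQO1 and GCLM (r = 0.696) had the highest values. NFE2L2 and NQO1 had the lowest (r = -0.585).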

How the data were processed

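TruSeq stranded mRNA libraries were sequenced as paired-end reads. The authors aligned reads with STAR to the MacaM rhesus genome, left out weakly mapped libraries and deposited raw read counts per gene under human homolog symbols; the counting tool, its strand setting and versions are not given in the sources used here. Of 51 labelled samples, 48 had counts, and 3 SM samples were not analysed here. Of 16103 table entries, 70 repeats with the same counts were dropped. No sequences or coordinates are given, since no genome of that build was used here.

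The counts were filtered to genes with at least 0.5 CPM in 10% of a tissue's libraries, TMM-scaled and tested with edgeR 4.0.16 (R 4.3.3; robust quasi-likelihood, two-sided, Benjamini-Hochberg over all genes tested), with time point and animal as terms in each tissue. Joint fits over both tissues gave tissue levels and interactions. Log2 CPM used a prior count of 2; 95% intervals use the quasi-likelihood degrees of freedom. Only the post- against pre-treatment fit within each tissue was tried on simulated counts, which had no differences between animals. The washout comparisons, joint fits and alternatives were not. Library totals of over 14455195 counts make counting error small except for SLC7A11, and it covers counting error only.

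The animal in the labels pairs the samples (the check: median correlation of deviations from group means 0.352 for the same animal in AT against -0.0354 for different animals; 0.279 against -0.0464 in SM). P-values for time measure spread over these animals. The alternatives were limma 3.58.1, DESeq2 1.42.0, other scalings, filters and covariates, and each animal left out. Named were the 8 genes in every comparison, up to 4 called genes per pathway list with a mean of at least 1 CPM (in AT), and the 3 genes most like NQO1; the same rule for HMOX1 could not be applied. The genes and lists were chosen with earlier results of these data known.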

Additional observations from a re-analysis of the deposited data

Results flagged for a closer look

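In 48 sets of libraries (8 genes in 6 groups), 7 had a highest library further from the rest than the spread of the group allows by Dixon's test. That test flags about 1 in 20 sets by chance where values are independent and normally distributed. These values were CPM on a linear scale, and the sets share libraries, so 7 of 48 is not read against that rate. In AT, the flagged libraries were the pre-treatment library of animal 20275 for SLC7A11 (7.94 CPM), its post-treatment library for NFE2L2 (259 CPM) and TXNRD1 (668 CPM), and the post-treatment library of animal 20456 for GCLM (43.8 CPM). In SM, they were the pre-treatment library of animal 20275 for GCLC (28.5 CPM), the pre-treatment library of animal 22130 for SRXN1 (128 CPM) and the washout library of animal 19832 for GCLM (78.8 CPM).

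By the interaction term, 3 changes were called different between the tissues, as AT minus SM on the log2 scale. In washout against post-treatment these were SLC7A11 (-2.08) and TXNRD1 (-0.93), where 21.9% of all genes were called. In washout against pre-treatment it was SLC7A11 (-2.84), where 17.0% of all genes were called. Of 16 alternatives, 7 lost the SLC7A11 call and 6 the TXNRD1 call in washout against post-treatment. Both SLC7A11 values rest on SM libraries with few counts.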

How the results depend on the processing

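SLC7A11 was called in AT post- against pre-treatment and in washout against pre-treatment under every alternative that could test it; the filter of at least 10 counts in every library removed it, leaving 0 NRF2 genes called in washout against pre-treatment AT. There the number called was 4 with limma's voomWithQualityWeights, 2 with DESeq2, 2 with the identifier series as a covariate, 3 with only the 2 time points in the fit and 2 in the last series alone, and it was 1 to 2 with single animals or libraries left out. Leaving those out gave 1 to 4 called in AT post- against pre-treatment (1 without animal 22130 or 26292), 1 to 4 in washout against post-treatment (1 without 20275, 21189, 22130 or 24849), 7 to 8 in AT against SM, 0 to 2 for the tissue difference in washout against post-treatment and 1 for that in washout against pre-treatment. In the last series alone 0 were called in AT washout against post-treatment and 1 in SM. For the tissue differences, 1 was called in washout against post-treatment with library size only (NQO1, in place of SLC7A11 and TXNRD1), with the series covariate and without the replicate block, and in washout against pre-treatment 2 with voomWithQualityWeights and 3 with the series covariate. The analysis without the post-treatment library of animal 20275 was chosen after seeing the data. The animal term is a replicate block, and without this pairing SRXN1 in AT post- against pre-treatment was -0.57, SLC7A11 in washout against post-treatment -1.06 and SRXN1 in AT against SM 0.46, each no longer called; the block changed no other call of the 8 genes beyond the SLC7A11 tissue difference in washout against post-treatment (-2.07).

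Of 1514 values of single NRF2 genes under the alternatives, 1345 kept their direction and side of the threshold, 51 lost a call, 31 gained one and 87 changed sign. In 86 of those 87 the gene was called neither before nor after, and the cause was not tested. The exception was NFE2L2 in AT against SM with library size only (0.34). Library size only also gave, on the log2 scale, GCLC 0.0115 in AT washout against post-treatment, NFE2L2 0.029 in AT washout against pre-treatment, GCLC 0.012 and GCLM 0.035 in SM post- against pre-treatment, KEAP1 -0.030 in SM washout against pre-treatment, and AT minus SM values of KEAP1 0.0066, GCLM 0.087, NFE2L2 0.23 and SRXN1 0.11. That scaling moved the median of all genes in washout against post-treatment to 0.25 for AT minus SM and to -0.15 for SM, and in washout against pre-treatment to 0.23 and -0.12. With voomWithQualityWeights the signs turned for GCLC in AT washout against post-treatment (0.00059), KEAP1 (0.14) and GCLM (0.038) in SM post- against pre-treatment, NFE2L2 (0.20), KEAP1 (-0.045) and GCLM (-0.018) in SM washout against post-treatment, and TXNRD1 (-0.19) and GCLM (0.078) for AT minus SM. DESeq2 gave 0.0167 and RLE size factors 0.0166 for GCLM in SM post- against pre-treatment. The series covariate gave GCLM -0.022 in AT washout against post-treatment, NQO1 -0.13, SLC7A11 0.058 and TXNRD1 -0.057 in SM post- against pre-treatment, NQO1 0.080 and SLC7A11 -0.080 in SM washout against post-treatment, SLC7A11 -0.022 in SM washout against pre-treatment, and KEAP1 0.023 and NFE2L2 0.15 for AT minus SM. In the last series alone, GCLM was -0.12 and SRXN1 -0.058 in AT washout against post-treatment; in SM, NFE2L2 was 0.50, NQO1 -0.033 and TXNRD1 -0.19 post- against pre-treatment, NQO1 0.11 and SRXN1 0.17 in washout against post-treatment, and KEAP1 -0.19, NQO1 0.076 and SLC7A11 -1.45 in washout against pre-treatment. Without the replicate block NQO1 was -0.043 and GCLC 0.034 in SM post- against pre-treatment, SLC7A11 -0.23 in SM washout against pre-treatment, and NFE2L2 0.0046 and SRXN1 0.089 for AT minus SM. With only 2 time points NQO1 was -0.044, TXNRD1 -0.028 and, in washout against post-treatment, NFE2L2 0.0070 in SM. With 1 animal or library left out, values that crossed 0 ran as follows. In SM post- against pre-treatment KEAP1 ran from -0.23 to 0.080, NQO1 from -0.11 to 0.24, GCLC from -0.20 to 0.062, GCLM from -0.094 to 0.23, SLC7A11 from -1.19 to 0.091 and TXNRD1 from -0.15 to 0.19. In SM washout against post-treatment NFE2L2 ran from -0.15 to 0.15, KEAP1 from -0.0012 to 0.28 and SRXN1 from -0.12 to 0.019, and in SM washout against pre-treatment KEAP1 from -0.026 to 0.13, GCLM from -0.067 to 0.36 and SLC7A11 from -0.041 to 1.09. In AT, GCLC ran from -0.20 to 0.062 in washout against post-treatment. For AT minus SM, post- against pre-treatment gave KEAP1 -0.25 to 0.054, GCLC -0.25 to 0.12 and TXNRD1 -0.094 to 0.35, washout against post-treatment GCLM -0.23 to 0.11, and washout against pre-treatment NFE2L2 -0.11 to 0.056.

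The number of all genes called post- against pre-treatment in AT, 1943, was 1285 with only 2 time points, 654 in the last series, 666 without animal 22130, 876 without 20275, 999 without its pre-treatment and 1236 without its post-treatment library, 1132 without 21189 and 1223 without 21866. In the last series it was 2031 of 4543 in washout against post-treatment and 963 of 2653 in washout against pre-treatment. In SM washout against post-treatment, 17 became 9 (voomWithQualityWeights), 359 (DESeq2), 4 (library size only), 89 (no replicate block), 2390 (series covariate), 2 (only 2 time points), 2859 (last series) and 0 to 21 with an animal left out; in washout against pre-treatment, 3 became 11, 179, 12 (RLE), 6 (10 counts in every library), 26 (no replicate block), 1278 (series covariate), 5, 20 and 0 to 14. For AT minus SM post- against pre-treatment, 5 became 11, 75, 0 (library size only), 46 (series covariate), 1 (no replicate block) and 0 to 8. In washout the series covariate gave 4058 and 3738 where 2702 and 2098 were called, and leaving out 21189 or 20275 gave 1795 and 1358. Depth limits SLC7A11 in SM, at a median of 2 to 6 counts per library.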
